A study of Mus musculus with 6 samples.

Results

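CDK inhibitors and p53 target genes were examined in mouse aortic smooth muscle cells carrying an adenoviral vector. The 10 genes were Cdkn1a, Cdkn1b, Cdkn1c, Cdkn2a, Cdkn2b, Cdkn2c, Trp53, Mdm2, Ccng1 and Sesn1, chosen by name among the 54532 genes of the table. RNA sequencing covered 3 libraries labelled Ad-Con, with a control plasmid in the vector and the genotype given as wild type, and 3 libraries labelled Ad-PDK4, with a PDK4 overexpression plasmid. PDK4 phosphorylates and thereby inhibits pyruvate dehydrogenase in mitochondria. According to the study, the cells came from abdominal aortas of wild-type mice after collagenase digestion, were grown in medium with serum, and received angiotensin II in both groups. Its methods also state that cells were starved of serum for in vitro experiments, without saying so of these libraries in particular. The labels are silent on angiotensin II, and untreated cells were not analysed here. The study calls the libraries biological replicates, but the labels do not say whether they came from separate cultures, so p-values measure only the spread between these samples.

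CDK inhibitors hold back the kinases that carry a cell from G1 into DNA synthesis. The Cip/Kip proteins p21 (Cdkn1a), p27 (Cdkn1b) and p57 (Cdkn1c) bind cyclin-kinase complexes, whereas the INK4 proteins p16 (from Cdkn2a), p15 (Cdkn2b) and p18 (Cdkn2c) bind Cdk4 and Cdk6 and keep the retinoblastoma protein active. The transcription factor p53, encoded by Trp53, induces Cdkn1a and its own inhibitor Mdm2, together with Ccng1 (cyclin G1) and Sesn1 (sestrin 1, a stress-inducible inhibitor of mTORC1 signalling). In smooth muscle cells of the arterial wall these genes are best known for control of proliferation and senescence. The levels below are of RNA. Cell cycle inhibitors and p53 are also regulated through protein stability, which was not measured.

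Between 17588942 and 21861872 reads per library were assigned to genes. Pdk4 itself, which checks the labels, was counted at 679, 642 and 646 reads under the label Ad-Con and at 490, 455 and 572 reads under the label Ad-PDK4. Its log2 fold change was -0.42 ± 0.06 (SE, adjusted p = 0.00114), which goes against the label, so every direction below refers to the label Ad-PDK4 only. Whether transcripts of the vector were counted on the mouse gene is not given in the sources used here. Of 12 smooth muscle markers, 4 passed the filter on low values. Over both groups, Acta2 had 1086 to 2789 reads per library, Smtn 642 to 787 and Tpm2 1074 to 1703, whereas Myh11 had at most 10, Tagln at most 20, and Pln 0. Mean Acta2 was 78.0 FPKM under Ad-Con and 36.2 under Ad-PDK4. Tpm2 was at 27.8 and 22.1, and Smtn at 8.32 and 8.44. The summed smooth muscle marker level was 116 to 117 FPKM under Ad-Con and 63.7 to 71.3 under Ad-PDK4. The summed level of 9 fibroblast markers was 1618 to 1759 and 845 to 930 FPKM, mostly from Col1a1 (mean 1056 and 435). Of the 8 tested, 5 were lower at an adjusted p below 0.05, 1 was higher and 2 did not pass. Besides Col1a1, mean FPKM fell from 311 to 177 for Col1a2, 192 to 74.1 for Dpt, 17.2 to 9.49 for Thy1 and 7.46 to 3.31 for Lum. Dcn rose from a mean of 90.1 to 160.6, and Pdgfra was at 20.5 and 19.9. Among 10 macrophage markers, Ptprc, Itgam, C1qa and Tyrobp were at 0 in every library, and the sum ranged from 27.8 to 30.9 under Ad-Con and from 24.7 to 27.6 under Ad-PDK4, in which Cd68 fell and Cd14 rose. Among 8 endothelial markers, Tie1 and Cldn5 were at 0, and the sum ranged from 0.634 to 0.827 and from 0.924 to 1.18. Whether these marker levels had a part in the results on the 10 genes was not tested. In such bulk samples, fewer cells of a type and less RNA per cell cannot be told apart.

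Promoter sequence is shown for 3 of the genes, because it places known binding motifs beside RNA levels that moved in different directions. Promoter windows of 300 bases (250 before and 50 after a start site, RefSeq, GRCm38.p6) were at hand for 9 of the 10 genes, in 13 windows. Cdkn1c had no entry. A p53 response element, allowing 1 mismatch outside its core C and G bases, was found in 1 window each of Cdkn1a and Ccng1, and in 0.0670% of all 32851 mouse promoter windows. The 105 bases of Cdkn1a lie at chr17:29090868-29090972 on the plus strand, with the element in capitals from 51 to 32 bases before the upstream of its 2 starts. The window of the other start of Cdkn1a held no such element. The 100 bases of Ccng1 lie at chr11:40755437-40755536 on the minus strand, with the element in capitals from 195 to 176 bases before the start. The 90 bases of Trp53 lie at chr11:69580274-69580363 on the plus strand, with an NF-kB site in capitals that spans the start.
Cdkn1a: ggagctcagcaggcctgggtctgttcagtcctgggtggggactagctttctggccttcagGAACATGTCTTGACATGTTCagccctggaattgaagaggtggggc
Ccng1: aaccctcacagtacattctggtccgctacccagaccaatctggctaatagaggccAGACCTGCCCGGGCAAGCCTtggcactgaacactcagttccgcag
Trp53: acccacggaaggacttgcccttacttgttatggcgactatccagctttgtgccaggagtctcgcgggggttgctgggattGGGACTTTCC

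Each of these matches is a description of the letters in a window, not evidence of binding. Both strands were searched. An NF-kB site was present in 8.46% of all windows and, among the 13, only in that of Trp53. The CCAAT box (CCAAT) was present in 8 of the 13 windows against 37.4% of all, and the GC box (GGGCGG) in 9 of the 13 against 35.7%. The p53 targets were chosen as such, so a p53 element near their starts is no finding about these libraries.

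All 10 genes passed the filter of a mean FPKM of at least 0.5, as did 13423 genes in all. FPKM counts a gene's fragments relative to gene length and library size. Trp53, Cdkn2b, Cdkn1a and Mdm2 rose in the libraries labelled Ad-PDK4, and Sesn1, Cdkn2a, Ccng1 and Cdkn1b fell. Cdkn1c and Cdkn2c did not pass the threshold of an adjusted p below 0.05. These 8 of 10 genes stand beside 42.7% of all tested genes called in either direction, 21.8% higher and 20.8% lower. The groups did not overlap for 9 of the 10 genes, and for 54.3% of all tested genes. Only Sesn1 also reached a fold of at least 2, as did 6.63% of all tested genes. The median log2 fold change was -0.04 over the 10 genes and -0.00309 over all tested genes, and the median absolute value was 0.28 and 0.25. The median of the 10 genes changed sign between settings, from -0.08 under quantile normalization to 0.11 where Cdkn1c was removed by a filter at a mean FPKM of 5.

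**Figure D1:**
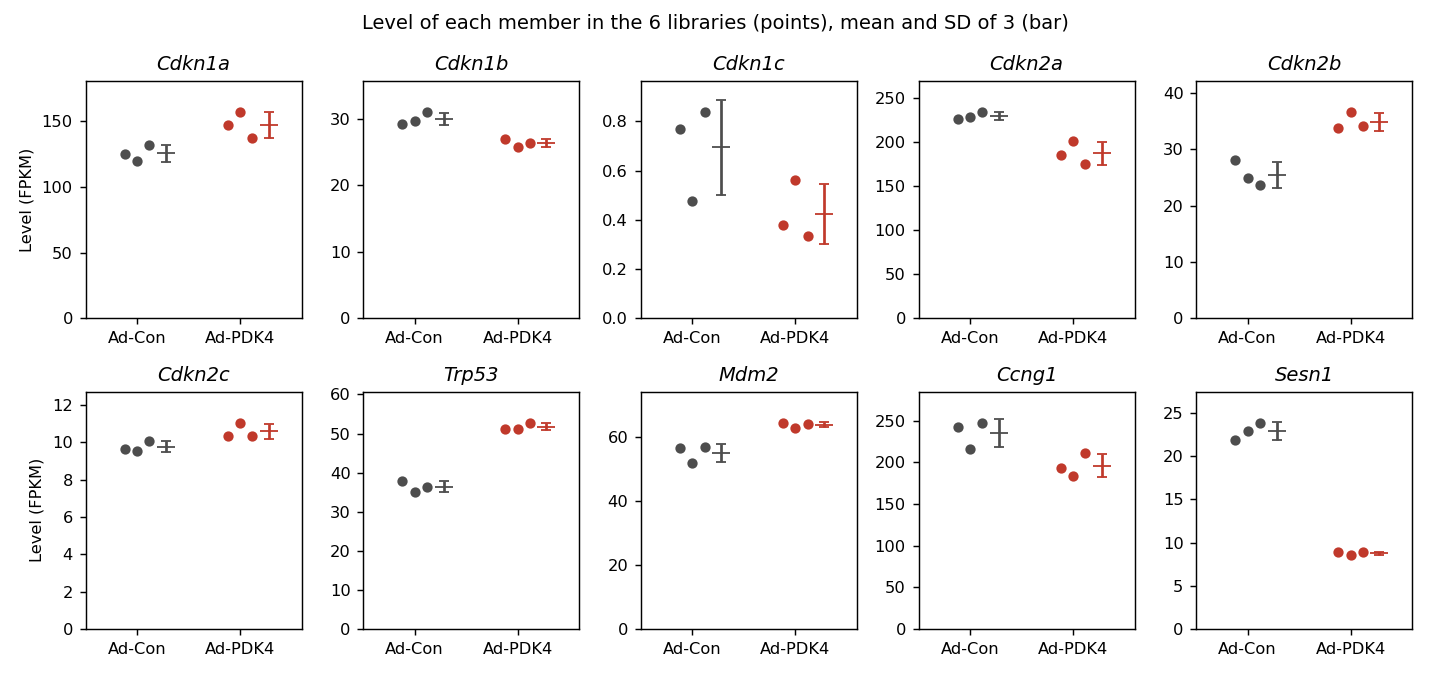
Level of the 10 genes in each library (vertical axis, FPKM, starting at 0 in every panel) for the 3 Ad-Con libraries (grey) and the 3 Ad-PDK4 libraries (red), with the mean and SD beside the points. Sesn1 sits between 21.9 and 23.9 FPKM under Ad-Con and between 8.54 and 8.89 under Ad-PDK4, and only the points of Cdkn1c overlap between groups.

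The order of levels was led by Ccng1 and Cdkn2a in both groups, whose ranges overlapped each other. Under Ad-Con, Ccng1 was at 235.6 ± 16.8 FPKM and Cdkn2a at 229.3 ± 4.3 (SD, n = 3). Cdkn1a followed at 125.7 ± 6.4, Mdm2 at 55.2 ± 2.8, Trp53 at 36.4 ± 1.4 and Cdkn1b at 30.0 ± 0.92. Cdkn2b at 25.5 ± 2.3 and Sesn1 at 22.9 ± 1.0 overlapped each other, Cdkn2c was at 9.77 ± 0.29, and Cdkn1c was lowest at 0.695 ± 0.194. The order differed in a pair of places under Ad-PDK4. Cdkn2b at 34.8 ± 1.6 FPKM stood above Cdkn1b at 26.3 ± 0.58, and Sesn1 at 8.76 ± 0.20 stood below Cdkn2c at 10.6 ± 0.41, in both cases without overlap. Ccng1 exceeded 98.7% of all tested genes by mean FPKM over the 6 libraries, Cdkn2a 98.6%, Cdkn1a 97.7% and Cdkn1c 1.76%.

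Trp53 (ENSMUSG00000059552, chromosome 11, 69580359 to 69591873, plus strand, GRCm38) encodes p53. Its level was 37.8, 35.02 and 36.4 FPKM under Ad-Con (3108, 2487 and 2666 reads) and 51.1, 51.3 and 52.8 FPKM under Ad-PDK4 (3763, 3630 and 4715 reads). Every Ad-PDK4 library was above every Ad-Con library, with a log2 fold change of 0.51 ± 0.05 (SE, adjusted p = 0.000124), the largest rise of the 10 genes. Wrap53, which starts on the opposite strand just upstream and encodes a Cajal body and telomerase protein, was at 6.07 to 6.74 FPKM under Ad-Con and 8.04 to 9.39 under Ad-PDK4 (log2 fold change 0.47 ± 0.08, adjusted p = 0.00237). The ratio of Wrap53 to Trp53 overlapped between groups, at 0.175 ± 0.007 and 0.172 ± 0.017 (SD, n = 3, exact two-sided permutation p = 1). The p53 relatives were near the floor, with at most 9 reads of Trp63 and at most 2 of Trp73 in any library.

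Mdm2 (ENSMUSG00000020184, chromosome 10, 117688875 to 117710758, minus strand), the ubiquitin ligase that binds p53 and marks it for degradation, was at 56.6, 52.1 and 57.1 FPKM under Ad-Con and 64.6, 63.1 and 64.2 under Ad-PDK4. The groups were separate but close, and the log2 fold change was 0.21 ± 0.05 (SE, adjusted p = 0.0119), and the adjusted p reached 0.0497 when single libraries were left out. Mdm4, a relative of Mdm2 that inhibits p53 transactivation, rose with a log2 fold change of 0.31 ± 0.07 (adjusted p = 0.00703). Within a library, the ratio of Mdm2 to Trp53 was 1.499, 1.487 and 1.569 under Ad-Con and 1.26, 1.23 and 1.22 under Ad-PDK4, without overlap. The exact two-sided permutation p was 0.1, the smallest that the 20 arrangements of 3 against 3 libraries allow.

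Of 20 regulators and relatives of p53, 18 were tested, 6 were higher and 2 were lower, and these 44.4% are near the 42.7% of all tested genes. Atm, the kinase of the DNA double-strand break response, rose from 5.44 to 5.65 FPKM under Ad-Con to 8.05 to 8.70 under Ad-PDK4 (log2 fold change 0.58 ± 0.06). Hipk2, a kinase that phosphorylates p53, rose by 0.58 ± 0.09. The checkpoint kinase gene Chek2 fell by 0.54 ± 0.09 on the log2 scale, and the ribosomal protein gene Rpl5, whose product binds Mdm2, fell by 0.36 ± 0.06. The list's median log2 fold change was 0.03 and took both signs across settings, from -0.07 to 0.11.

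Cdkn1a (ENSMUSG00000023067, chromosome 17, 29090976 to 29100727, plus strand) encodes p21, the inhibitor through which p53 arrests the cycle. It was at 125, 120 and 132 FPKM under Ad-Con (9038, 7462 and 8530 reads) and 147, 157 and 138 under Ad-PDK4 (9503, 9779 and 10791 reads). The highest Ad-Con library lay just below the lowest Ad-PDK4 library. The log2 fold change was 0.23 ± 0.06 (SE, adjusted p = 0.0225). The call was lost without Ad-Con replicate 1 (adjusted p = 0.0616), Ad-Con replicate 2 (0.0712), Ad-PDK4 replicate 1 (0.0675) or Ad-PDK4 replicate 2 (0.0523), and without trend and robust moderation (0.0563). An antisense gene, AC167363.2, shares 273 exonic bases with Cdkn1a (7.68% of its exons) and reached at most 8.09 FPKM. Whether counting used strand is not given in the sources used here, so reads in those bases cannot be told apart. The ratio of Cdkn1a to Trp53 was 3.46 ± 0.17 under Ad-Con and 2.85 ± 0.23 under Ad-PDK4 (SD, n = 3) without overlap between groups (exact two-sided permutation p = 0.1, the smallest possible).

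Ccng1 (ENSMUSG00000020326, chromosome 11, 40748552 to 40755311, minus strand), the other gene with a p53 element in its window, went the other way. Cyclin G1 recruits a phosphatase to Mdm2 and is a standard reporter of p53 activity. It was at 243, 216 and 248 FPKM under Ad-Con (17358, 13341 and 15766 reads) and 193, 183 and 211 under Ad-PDK4 (12361, 11276 and 16344 reads). The groups were separated by the gap between Ad-PDK4 replicate 3 and Ad-Con replicate 2. The log2 fold change was -0.27 ± 0.07 (SE, adjusted p = 0.0191). The adjusted p rose to 0.0615 and 0.0721 without Ad-Con replicates 1 and 3, to 0.0634 and 0.0533 on leaving out Ad-PDK4 replicates 1 and 2, 0.103 under quantile normalization and 0.0506 without trend and robust moderation. Its relative Ccng2, a cyclin induced in arrested cells, fell by 0.33 ± 0.07 on the log2 scale (adjusted p = 0.00491).

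Sesn1 (ENSMUSG00000038332, chromosome 10, 41809935 to 41908424, plus strand) changed most among the 10 genes. It was at 21.9, 22.9 and 23.9 FPKM under Ad-Con (1772, 1604 and 1725 reads) and 8.86, 8.54 and 8.89 under Ad-PDK4 (642, 595 and 782 reads). The lowest Ad-Con library was far above the highest Ad-PDK4 library. The log2 fold change was -1.38 ± 0.06 (SE, adjusted p = 1.37e-06), a fold of 0.386. Its absolute change exceeded that of 95.5% of tested genes, and 206 genes fell further. Leaving out single libraries gave -1.41 to -1.34. The annotation gives Sesn1 more than 1 start site, and the gene-level values do not say from which start the reads came.

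The other sestrins went in opposite directions. Sesn2, induced by p53 and by the integrated stress response, was at 15.2, 13.9 and 14.7 FPKM under Ad-Con and 19.04, 18.7 and 16.6 under Ad-PDK4, with a log2 fold change of 0.31 ± 0.07 (adjusted p = 0.00916). Sesn3, a FoxO target, was at 15.3, 14.8 and 15.1 FPKM and then 7.88, 7.95 and 7.62, with a log2 fold change of -0.94 ± 0.05 (adjusted p = 7.63e-06). The summed FPKM of the sestrins was 52.6 ± 1.0 under Ad-Con and 34.7 ± 1.4 under Ad-PDK4 (SD, n = 3). Sesn1 made up 43.6% ± 1.6 of that sum under Ad-Con and 25.3% ± 1.4 under Ad-PDK4, and Sesn2 27.8% ± 1.1 and 52.1% ± 1.8. The ratio of Sesn1 to Sesn2 was 1.57 ± 0.12 and 0.486 ± 0.044. Sesn1 was lower and Sesn2 higher, each without overlap, so the ratio had to separate the groups and is a description only.

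**Figure D2:**
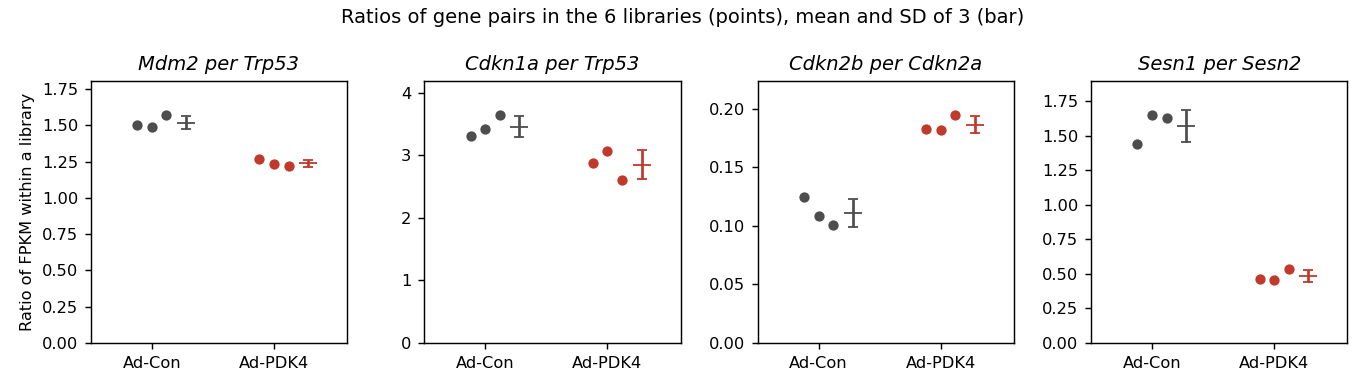
Ratio of FPKM between genes of a pair within each library (vertical axis, no unit, starting at 0) for Ad-Con (grey) and Ad-PDK4 (red), with the mean and SD of 3 libraries beside the points. The groups do not overlap in any panel: Mdm2 and Cdkn1a are lower relative to Trp53 under Ad-PDK4, Cdkn2b is higher relative to Cdkn2a, and Sesn1 is lower relative to Sesn2. For the Cdkn2b and Sesn1 panels this was bound to be so, since the genes of each pair separated the groups in opposite directions.

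Among the other Cip/Kip genes, Cdkn1b (ENSMUSG00000003031, chromosome 6, 134920401 to 134925513, plus strand) encodes p27, which accumulates in quiescent cells. It was at 29.2, 29.7 and 31.0 FPKM under Ad-Con and 26.9, 25.8 and 26.3 under Ad-PDK4. The groups did not overlap, and the log2 fold change was -0.19 ± 0.05 (SE, adjusted p = 0.0174), and the adjusted p was 0.0721 without Ad-Con replicate 3. Cdkn1a made up 80.4% ± 0.44 of the summed Cip/Kip FPKM under Ad-Con and 84.6% ± 0.97 under Ad-PDK4, while the sum itself, 156 ± 7.4 and 174 ± 9.7 FPKM (SD, n = 3), overlapped between groups.

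Cdkn1c (ENSMUSG00000037664, chromosome 7, 143458339 to 143461050, minus strand), the imprinted gene of p57, was at the low end of what could be measured and passed the filter on low values only through the Ad-Con libraries. It had 32, 17 and 31 reads under Ad-Con and 14, 20 and 15 under Ad-PDK4, that is 0.771, 0.475 and 0.839 FPKM against 0.377, 0.560 and 0.333. Ad-Con replicate 2 fell inside the Ad-PDK4 range. The log2 fold change was -0.59 ± 0.32 (SE, adjusted p = 0.175, and 0.205 where all genes with a mean FPKM above 0 were tested). Its 95% interval ran from -1.34 to 0.15, so these read counts allow both a fall and a small rise. The antisense gene Gm44732, which overlaps 30.7% of the exonic bases of Cdkn1c, was at 0.

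Of 12 genes for turnover and control of p27, 11 were found and tested. Rbx1, a subunit of the SCF ubiquitin ligase, rose by 0.27 ± 0.05 (log2). Stmn1, a microtubule regulator to which p27 binds, fell from 28.3 to 34.4 FPKM to 12.1 to 14.5 (log2 fold change -1.24 ± 0.09, adjusted p = 3.27e-05). Foxo4, a FoxO factor that induces Cdkn1b, fell by 0.29 ± 0.06, and Cks2, a small kinase-binding protein, fell by 0.43 ± 0.13, a call that was lost without Ad-Con replicate 1 (adjusted p = 0.0598), Ad-Con replicate 3 (0.0751), Ad-PDK4 replicate 1 (0.0725) or Ad-PDK4 replicate 2 (0.0597). The other 7 did not pass the threshold, so 36.4% were called against 42.7% of all tested genes. The median log2 fold change was -0.12.

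Cdkn2a and Cdkn2b are neighbours on chromosome 4 (GRCm38, minus strand) and moved in opposite directions. Cdkn2a (ENSMUSG00000044303, 89274471 to 89294653) was at 225, 229 and 234 FPKM under Ad-Con (5378, 4703 and 4969 reads) and 185, 201 and 175 under Ad-PDK4 (3938, 4128 and 4534 reads). All Ad-PDK4 libraries were below all Ad-Con libraries, at a log2 fold change of -0.30 ± 0.06 (SE, adjusted p = 0.00475). The gene gives rise to both p16 and, from another first exon, the Mdm2 inhibitor p19ARF, and its 2 annotated transcripts cannot be told apart in gene-level values.

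Cdkn2b (ENSMUSG00000073802, 89306299 to 89311039), the TGF-beta-inducible gene of p15, was at 28.03, 24.8 and 23.6 FPKM under Ad-Con (793, 606 and 594 reads) and 33.8, 36.6 and 34.1 under Ad-PDK4 (854, 891 and 1046 reads). Again the groups were separate, and the log2 fold change was 0.45 ± 0.07 (SE, adjusted p = 0.00186). The ratio of Cdkn2b to Cdkn2a was 0.124, 0.109 and 0.101 under Ad-Con and 0.183, 0.182 and 0.195 under Ad-PDK4. Both genes had separated the groups in opposite directions, so their ratio had to do so too and is a description only.

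Cdkn2c (ENSMUSG00000028551, chromosome 4, 109660876 to 109667189, minus strand), the gene of p18, was at 9.64, 9.56 and 10.1 FPKM under Ad-Con and 10.4, 11.1 and 10.3 under Ad-PDK4. The groups did not overlap, but the log2 fold change of 0.11 ± 0.06 (SE) did not pass the threshold (adjusted p = 0.149), with a 95% interval from -0.02 to 0.25. Cdkn2d, the remaining INK4 gene, was at 7.60 to 9.15 and 7.996 to 10.7 FPKM (log2 fold change 0.14 ± 0.12, adjusted p = 0.382). The sum of the INK4 genes among the 10 and Cdkn2d followed Cdkn2a, at 273 ± 1.9 FPKM under Ad-Con and 242 ± 16.4 under Ad-PDK4 (SD, n = 3), in which Cdkn2a had a share of 84.0% ± 1.1 and 77.3% ± 0.32.

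Regulators of the Ink4 locus went both ways, 4 higher and 6 lower of 18 tested (55.6% called, beside 42.7% of all tested genes), with a median log2 fold change of -0.08. Id3 and Id1, inhibitors of basic helix-loop-helix factors that act on the p16 promoter, fell by 1.17 ± 0.07 and 0.69 ± 0.06 on the log2 scale. Ezh2, the methyltransferase of Polycomb repressive complex 2, fell from 3.31 to 4.47 FPKM to 2.02 to 2.11 (log2 fold change -0.88 ± 0.12), while Eed, another subunit of that complex, rose by 0.47 ± 0.06. The transcription factor genes Ets2 and Ets1 rose by 0.48 ± 0.05 and 0.31 ± 0.07. Bmi1, the Polycomb repressor best known at this locus and named outside the rule after its value was seen, had a log2 fold change of 0.03 ± 0.09 (adjusted p = 0.813).

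**Figure D3:**
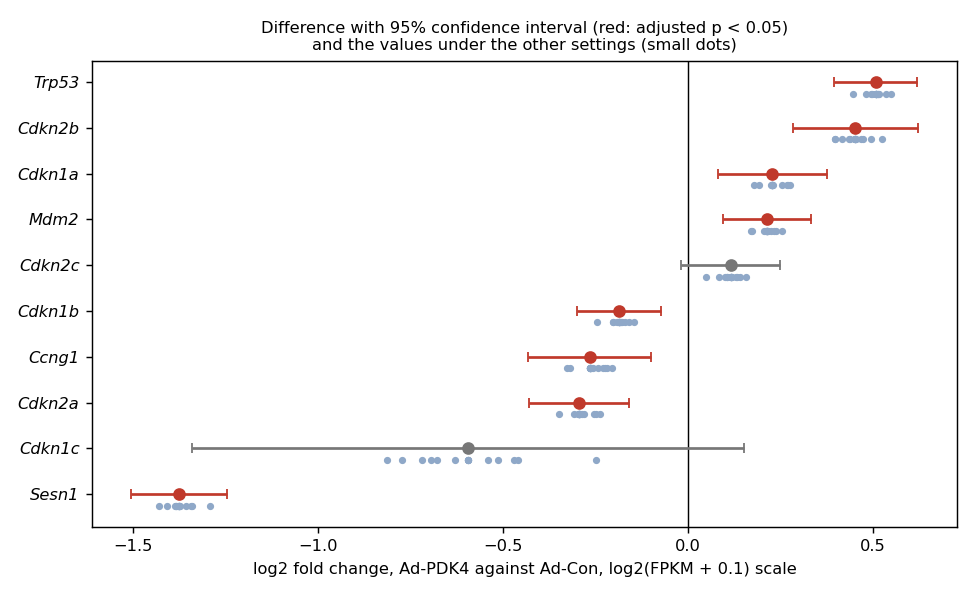
Log2 fold change of the 10 genes (horizontal axis, log2(FPKM + 0.1) scale, Ad-PDK4 against Ad-Con) with its 95% confidence interval, in red where the adjusted p was below 0.05, and below each the values under the other settings as small dots. Trp53 is highest at 0.51 and Sesn1 lowest at -1.38, and no gene has settings on both sides of 0.

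Targets of the inhibitors were split by subunit. Of 11 G1 cyclins and kinases, 9 were tested, 4 were higher and 2 were lower (66.7% called, beside 42.7% of all tested genes). The median log2 fold change was 0.20. Cdk4 fell from 133 to 134 FPKM under Ad-Con to 95.8 to 98.1 under Ad-PDK4 (log2 fold change -0.46 ± 0.04, adjusted p = 8.04e-05), whereas its partner in function Cdk6 rose from 2.95 to 3.03 FPKM to 4.80 to 5.01 (0.70 ± 0.07, adjusted p = 0.000169). The ratio of Cdk4 to Cdk6 was 44.8 ± 0.74 and 19.7 ± 0.49 (SD, n = 3), a separation that follows from the opposite changes of these genes. The D cyclins, which activate these kinases, summed to 78.0 ± 3.5 and 103 ± 6.6 FPKM without overlap, and Ccnd3 rose by 0.78 ± 0.06 (log2). Ccne1, the cyclin E1 gene, rose by 0.83 ± 0.19 from a low level of 1.09 to 1.83 FPKM. Ccna2, the S phase cyclin, fell by 1.23 ± 0.16.

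Of 17 genes of the Rb and E2F families and their partners, 14 were tested, 6 were higher and 2 were lower (57.1% called, beside 42.7% of all tested genes). Lin52, a subunit of the DREAM complex, rose by 0.64 ± 0.10 (log2), E2f4 by 0.45 ± 0.11 and E2f3 by 0.34 ± 0.09 (adjusted p = 0.0520 without Ad-Con replicate 1). Rbl2, the pocket protein p130 of quiescent cells, fell by 0.31 ± 0.06. Tfdp2, an E2F partner, fell by 0.24 ± 0.07 (adjusted p = 0.0224). The Tfdp2 call was lost when any of 4 libraries was left out, with adjusted p of 0.0783, 0.0532 and 0.0590 without Ad-Con replicates 1, 2 and 3 and 0.0675 without Ad-PDK4 replicate 1. The list's median of 0.20 fell to -0.02 where genes with a mean FPKM above 0 were all tested.

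Mitotic genes made up most of the falls among proliferation genes. Replication genes fell or did not pass the threshold, apart from Pcna. Of 23 proliferation genes, 15 were lower, 1 was higher and 7 did not pass the threshold, beside 20.8% of all tested genes called lower. The median log2 fold change was -0.57 and stayed between -0.67 and -0.29 over the settings. Mki67, the Ki-67 antigen gene, was at 4.74, 3.87 and 5.41 FPKM under Ad-Con and 2.06, 1.61 and 1.65 under Ad-PDK4 (log2 fold change -1.34 ± 0.15, adjusted p = 0.000258). Ccnb2, a mitotic cyclin, fell by 1.19 ± 0.18, and Birc5, the gene of the mitotic protein survivin, by 1.07 ± 0.15. Of the replication licensing genes, Mcm4 and Mcm7 fell by 0.26 ± 0.08 and 0.28 ± 0.06, while Mcm2, Mcm3, Mcm5 and Mcm6, with log2 fold changes of 0.26, -0.16, 0.21 and 0.07, did not pass the threshold (all 6 named outside the rule after their values were seen). Tk1 and Rrm2, also named outside the rule after their values were seen, fell by 0.53 ± 0.13 (adjusted p = 0.0109) and 0.67 ± 0.23 (0.0469). Pcna, the replication clamp and itself a p53 target, rose by 0.15 ± 0.05 (adjusted p = 0.0476), a call that was lost without Ad-Con replicate 1 (adjusted p = 0.156), 2 (0.0855) or 3 (0.0900) and without Ad-PDK4 replicate 1 (0.0927) or 3 (0.106).

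Other targets of p53 rose and fell in like numbers. In a list of 24 targets for arrest, repair and feedback, 8 were higher and 8 were lower (66.7% called, beside 42.7% of all tested genes). The median log2 fold change was -0.07. Rprm (reprimo, a G2 arrest protein) rose by 0.97 ± 0.14 (log2), Dram1 (a lysosomal autophagy protein) by 0.96 ± 0.13 and Gdf15 (a stress cytokine) by 0.94 ± 0.08. Gadd45a, a growth arrest and DNA damage gene, fell from 123 to 130 FPKM to 70.4 to 73.9 (log2 fold change -0.82 ± 0.05, adjusted p = 8.13e-06). Rrm2b, the p53-inducible ribonucleotide reductase subunit, fell by 0.53 ± 0.08, and Trp53inp1, a stress-induced p53 cofactor, by 0.53 ± 0.10.

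In a list of 15 p53 targets for cell death, 5 were higher and 4 were lower (60% called, beside 42.7% of all tested genes). The list's median of 0.02 took both signs across settings. The death receptor gene Fas was at 8.78, 7.75 and 10.4 FPKM under Ad-Con and 18.5, 18.0 and 20.3 under Ad-PDK4 (log2 fold change 1.08 ± 0.11, adjusted p = 0.000153). Aen, an apoptosis-enhancing nuclease, rose by 0.74 ± 0.06 and Bbc3, the gene of the BH3 protein PUMA, by 0.47 ± 0.11. Steap3, a ferrireductase, was at 43.7, 44.3 and 42.9 FPKM and then 15.9, 15.6 and 13.7 (log2 fold change -1.53 ± 0.07, adjusted p = 1.76e-06). Perp, a membrane protein of desmosomes, fell by 1.11 ± 0.06, and Fdxr, the mitochondrial ferredoxin reductase, by 0.51 ± 0.12. Bax, an apoptosis effector named outside the rule after its value was seen, had a log2 fold change of 0.03 ± 0.10 (adjusted p = 0.822).

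**Figure D4:**
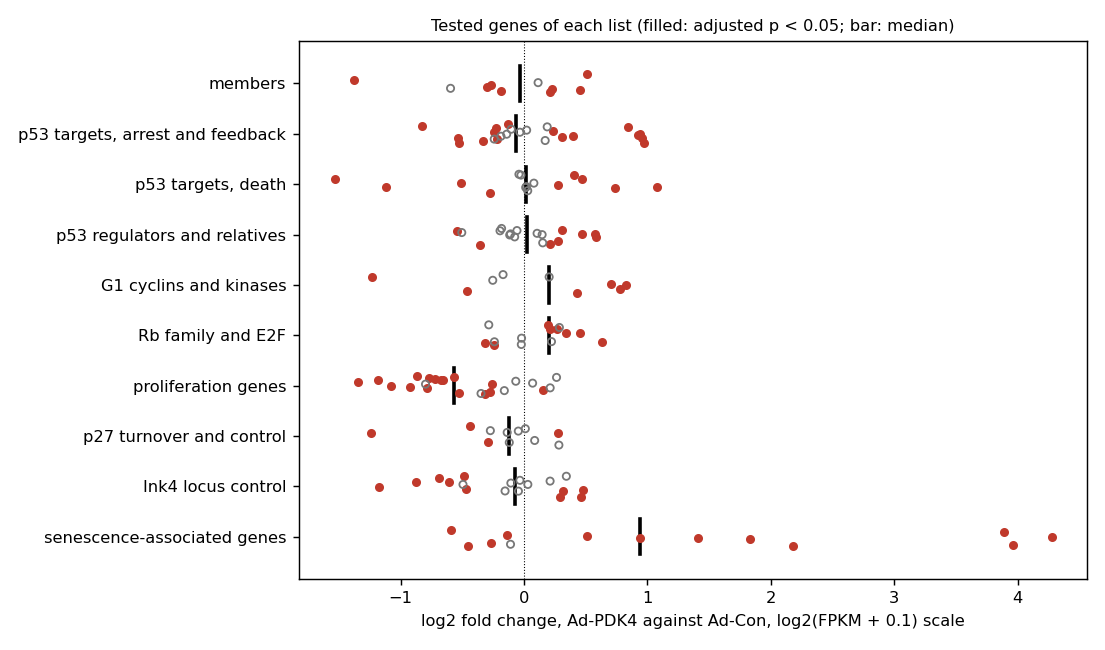
Log2 fold change (horizontal axis, log2(FPKM + 0.1) scale, Ad-PDK4 against Ad-Con) of every tested gene of the 10 genes and 9 related lists, filled red where the adjusted p was below 0.05, with a black bar at each median and random vertical scatter within a row. The p53 target lists spread to both sides of 0, most proliferation genes lie below it, and the senescence-associated list reaches 3.97 (Cxcl1), with Il6, which had 1 to 4 reads per Ad-Con library, beyond it.

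Of 13 senescence-associated genes, 8 were higher and 4 were lower (92.3% called, beside 42.7% of all tested genes), with a median log2 fold change of 0.94. Secreted factors had the largest rises. The chemokine genes Cxcl1 and Ccl2 rose by 3.97 ± 0.25 and 3.89 ± 0.15 on the log2 scale. Il6 had 4, 1 and 2 reads under Ad-Con and 114, 89 and 210 under Ad-PDK4. It passed the filter on low values only through the Ad-PDK4 libraries, so no fold or p is given for it. The 8, the 92.3% and the median of 0.94 nevertheless include Il6. The list was also written with earlier results of these data known, so its share called is a description only. Cxcl1, Ccl2 and Il6 also respond to inflammatory signalling outside senescence. Lmnb1, the lamin B1 gene that declines in senescent cells, fell by 0.45 ± 0.06 and Hmgb2, a chromatin protein, by 0.59 ± 0.10. Hmgb1, another chromatin protein, fell by 0.27 ± 0.08 (adjusted p = 0.0333), a call that was lost without Ad-Con replicate 1 (adjusted p = 0.0991), Ad-Con replicate 3 (0.111), Ad-PDK4 replicate 1 (0.0691) or Ad-PDK4 replicate 2 (0.0873). Glb1, the other gene called lower, fell by 0.14 ± 0.05 (adjusted p = 0.0416). Mmp3, also a secreted factor, was the only gene of the list not called. Its means were 301 and 280 FPKM, with a log2 fold change of -0.11 ± 0.09 (adjusted p = 0.381). Glb1 and Mmp3 were named outside the rule after their values were seen. Of the INK4 genes used as senescence markers, Cdkn2a was lower and Cdkn2b higher, as given above.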

How the data were processed

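The deposited table held FPKM per gene and library, which the authors computed with 1 column per library and no pooling, beside the gene length in bases. The submitters' processing notes name CASAVA 1.8, fastp, HISAT2 2.0.5, featureCounts 1.5.0-p3, DESeq2 1.20.0 and GRCm39. Of 54532 gene identifiers 54495 matched GENCODE M21 (GRCm38), 98.3% of them at identical coordinates, so GRCm38 is used here. The strand setting is not given in the sources used here, and the labels and the methods name different library kits. FPKM times gene length came out as whole reads for every non-zero value (tolerance 0.01). These recovered reads are printed as depth and used only for limma-voom.

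FPKM values were compared as log2(FPKM + 0.1) with limma 3.58.1 (R 4.3.3, empirical Bayes with trend and robust, no covariates) over all 6 libraries, with Benjamini-Hochberg adjustment over 13423 genes of mean FPKM at least 0.5. Fold changes are on that scale, which understates those of low genes. Every adjusted p is from this test unless another setting is named. The limma fit, and no other step, was tested on simulated counts, in which far fewer genes changed than were called here. Ratios within a library were compared by exact permutation. Its p is not given for pairs whose genes separated the groups in opposite directions, which fixes the outcome. A count of 0 allows up to 3 reads, for counting error only. Promoter sequences were from RefSeq. Replicate numbers did not pair the libraries, and groups of 3 were too small for a test of outlying libraries.

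The 10 genes and the related lists were chosen with earlier results of these data known. Named were the 10 genes, Pdk4, their family members, and up to 3 largest rises and 3 largest falls per list at an adjusted p below 0.05.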

Additional observations from a re-analysis of the deposited data

How the results depend on the processing

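The comparison was repeated under 16 other settings: a pseudocount of 1 or 0.01, a filter at a mean FPKM above 0 or of at least 5, rescaling to TPM or by the median of ratios, quantile normalization, moderation without trend and robust, a replicate block, limma-voom, and each library left out. All 10 genes kept their direction under every setting that could be run (15 for Cdkn1c, which the filter at 5 removes). Trp53, Cdkn2b, Cdkn2a, Mdm2 and Sesn1 kept an adjusted p below 0.05 in all 16, whereas Cdkn1a and Ccng1 each lost it in 6 and Cdkn1b in 1. With single libraries left out, the number of the 10 genes called lower ranged from 2 (without Ad-Con replicate 3) to 4. The number called higher ranged from 3 to 4. Calls over all tested genes also dropped. Those called lower ranged from 2156 (without Ad-Con replicate 3) to 2699, against 2798 with all libraries. Those called higher ranged from 2314 (without Ad-PDK4 replicate 1) to 2682, against 2928. In the same fits the log2 fold change ranged from 0.18 to 0.28 for Cdkn1a, from -0.33 to -0.22 for Ccng1 and from -0.20 to -0.16 for Cdkn1b. The replicate numbers did not pair the libraries: deviations of same-numbered libraries correlated at -0.046, -0.0311 and -0.0013. With the replicate block, Cdkn1a had an adjusted p of 0.0544, and 2759 genes were called higher and 2626 lower, against 2928 and 2798 without it. Of the related genes named, adjusted p rose to 0.0541 (TPM) and 0.0501 (block) for Tfdp2, to 0.0825 (filter above 0), 0.213 (quantile), 0.0802 (moderation), 0.0576 (block) and 0.0513 (limma-voom) for Pcna, to 0.0611 (filter above 0) and 0.0585 (moderation) for Cks2, and to 0.0724 (filter above 0), 0.0801 (TPM) and 0.0659 (moderation) for Hmgb1. Rescaling moved the median of all tested genes by less than 0.1, to between -0.04 and 0.04 (log2). Depth limits Cdkn1c, with at most 32 reads, and the p53 relatives Trp63 and Trp73. The cause of lost calls was not tested, apart from the smaller number of libraries where one was left out.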

Other observations

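Neither tested neighbour of the Ink4 locus, both named outside the rule, passed the threshold. Mtap, the neighbouring gene of methionine salvage, was at 13.1 to 14.02 FPKM under Ad-Con and 12.9 to 14.5 under Ad-PDK4 (log2 fold change -0.01 ± 0.06, SE, adjusted p = 0.89). Klhl9, a ubiquitin ligase adaptor, was at 13.2 to 15.6 and 10.7 to 13.8 FPKM (-0.26 ± 0.10, adjusted p = 0.0802).

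Of 11 genes of the imprinted region around Cdkn1c, 6 were tested. Apart from Igf2, for which no test is given, only Cars passed the threshold, beside 42.7% of all tested genes. Igf2, the fetal growth factor gene expressed from the paternal copy, had 50, 44 and 34 reads under Ad-Con and 291, 298 and 336 under Ad-PDK4 (0.429, 0.438 and 0.328 FPKM against 2.79, 2.98 and 2.66). It passed the filter on low values only through the Ad-PDK4 libraries, so its test is not given. Cars, a tRNA synthetase gene, rose by 0.45 ± 0.07 (adjusted p = 0.00114). Kcnq1 had 0 reads in every library, and Cdkn1c itself did not pass the threshold.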
